A study of Saccharomyces cerevisiae with 12 samples.

Results

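The 51 genes described here encode the enzymes that build arginine, histidine, the branched-chain amino acids, lysine, the aromatic amino acids, threonine and proline in budding yeast. They were fixed as a list of names and located by their sacCer3 coordinates, and all 51 were found among 6002 genes. A gene's window ran from 600 bp before its start codon to its stop codon. The windows held 681 listed nucleosomes in Ioc3-KO, 688 in Ioc3-R739E/R742E, 672 in Ioc3-Q251K/D252K, and 667, 664 and 669 in the wild-type pools WT1, WT2 and WT3, of 76013 to 77652 in a whole list.

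The data are MNase-seq: micrococcal nuclease digests the DNA between nucleosomes, and the protected fragments are sequenced. All cells were Saccharomyces cerevisiae BY4741 grown to mid-log phase in rich YPD medium at the same temperature. The mutant groups were Ioc3-KO, in which the IOC3 gene is knocked out, Ioc3-R739E/R742E, and a second pair of substitutions, Ioc3-Q251K/D252K. They were set against wild-type cells in 3 groups. Each of the 6 groups had 2 labelled replicates, and each deposited list pools its group, so a genotype is 1 pool and the spread comes from the 3 wild-type pools. The BY4741 background carries deletions at HIS3, LEU2, MET17 and URA3, and these genes are not among the 51. The sources used here do not say how the substitutions were introduced, whether a genotype rests on 1 clone, or whether replicates were separate cultures.

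Ioc3 is a subunit of Isw1a, a remodelling complex that slides and evenly spaces nucleosomes. Many amino acid synthesis genes share the activator Gcn4, which is made chiefly when cells are starved of amino acids, and several pathways add a regulator of their own, such as Leu3, Lys14 or Arg81. In rich medium most of these genes are expressed at a basal level. Their promoters typically have a nucleosome-depleted gap upstream of the first genic nucleosome.

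The label of the knockout was checked at its own locus. The IOC3 coding region held 825 listed reads in Ioc3-KO, 2355 in Ioc3-R739E/R742E, 2228 in Ioc3-Q251K/D252K, and 2392, 2426 and 2570 in wild type, so the knockout held the fewest but was not at 0. URA3 held 698 reads in Ioc3-KO and 0 in each other pool. Ioc3-KO thus differs from wild type and from the point mutants at URA3 as well as at IOC3, and no comparison here separates these differences. LEU2 held 0 in all pools and MET17 at most 1. HIS3 held 326 reads in Ioc3-KO, 336 in Ioc3-R739E/R742E, 170 in Ioc3-Q251K/D252K, and 315, 338 and 223 in wild type. The lists carried 10282804 to 10350515 reads each, and a listed nucleosome had a median of 133 to 139 reads. The median width of a nucleosome's read distribution, its fuzziness, was 33.2 bp in Ioc3-KO, 32.5 bp in Ioc3-R739E/R742E, 32.3 bp in Ioc3-Q251K/D252K and 31.5 to 31.9 bp in wild type. The values for the 51 genes are therefore given beside those of all genes.

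The arginine genes were ARG2, ARG7, ARG8, CPA1, ARG3, ARG1 and ARG4, and the histidine genes HIS1, HIS4, HIS6, HIS7, HIS5 and HIS2. The branched-chain set held ILV1, ILV2, ILV6, ILV5, ILV3, LEU4, LEU9, LEU1, BAT1 and BAT2, and the lysine set LYS20, LYS21, LYS4, LYS12, LYS2, LYS5, LYS9 and LYS1. The aromatic set held ARO3, ARO4, ARO1, ARO2, ARO7, ARO8, ARO9 and TRP1 to TRP5. HOM3, HOM2, HOM6, THR1 and THR4 form the threonine branch, and PRO1, PRO2 and PRO3 make proline. Coding regions were 675 to 4767 bp long, with a median of 1287 bp. Matching summits across the lists gave 639 nucleosome positions in the windows, of which 605 had an entry in all 6 pools. Those 605 were 162 of 184 in the promoters and 443 of 455 in the coding regions.

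Promoter gaps were compared first, as the widest distance between neighbouring summits in a stretch that began 400 bp upstream of the start codon and ended 50 bp downstream of it. ARO1, which encodes the multi-step enzyme of the shikimate pathway (YDR127W, chromosome IV, 704484 to 709250), had a narrower gap in each Ioc3 pool. Its gap was 173 bp in Ioc3-KO, 182 bp in Ioc3-R739E/R742E and 183 bp in Ioc3-Q251K/D252K, against 294, 290 and 291 bp in wild type. Every Ioc3 pool thus lay below every wild-type pool, by more than 100 bp. The difference was -112 bp over the 3 Ioc3 pools against the 3 wild-type pools (SE 4.40, limma adjusted p = 0.000596), and it was called in each single genotype, with adjusted p of 0.0159 to 0.0168.

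The narrower ARO1 gap came from an extra listed nucleosome of low read number. Ioc3-KO listed one 208 bp before the start codon with 35 reads, Ioc3-R739E/R742E one at -146 bp with 34 reads, and Ioc3-Q251K/D252K one at -221 bp with 25 reads. No wild-type list had an entry between the nucleosome near -325 bp and the one near -40 bp. The 3 extra entries thus lay at different places in the same gap, and each held far fewer reads than the nucleosomes at its edges. The gap therefore rests on whether a weak nucleosome was listed at all, with a median of 131 to 137 reads over the members' nucleosomes in each pool.

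**Figure D1:**
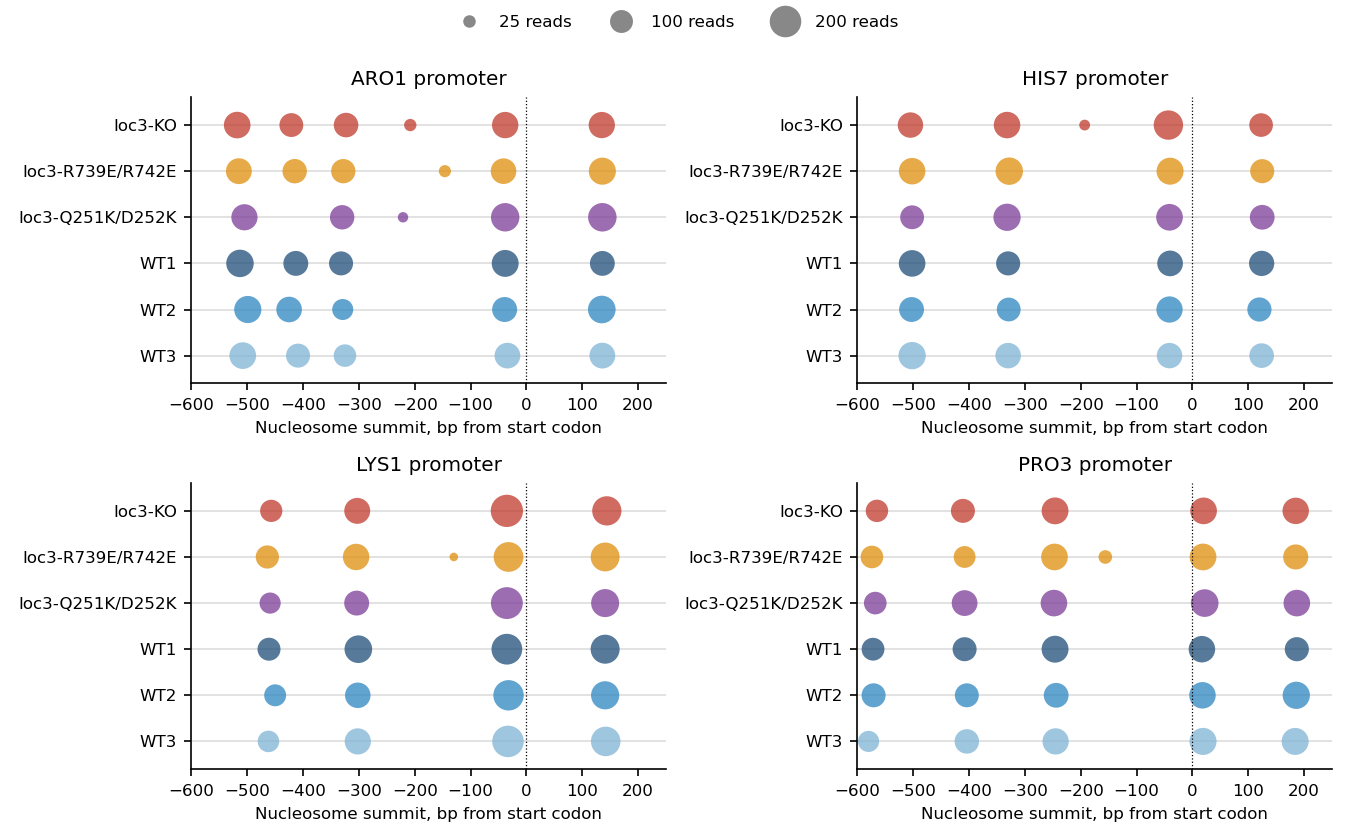
Listed nucleosomes at the promoters of ARO1, HIS7, LYS1 and PRO3, by distance of the summit from the start codon in bp (dotted line at 0), with 1 row per pool and circle area proportional to reads. ARO1 has a small circle inside the gap in all 3 Ioc3 pools and in no wild-type pool. HIS7 has one in Ioc3-KO, and LYS1 and PRO3 have one in Ioc3-R739E/R742E.

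The gaps of 3 other members were called in a single genotype. HIS7, which encodes imidazole glycerol phosphate synthase, had a gap of 166 bp in Ioc3-KO, against 288 and 291 bp in the point mutants and 290, 288 and 289 bp in wild type. LYS1, which encodes the saccharopine dehydrogenase of the last lysine step, had 175 bp in Ioc3-R739E/R742E, against 268 bp in Ioc3-KO, 269 bp in Ioc3-Q251K/D252K and 266, 270 and 269 bp in wild type. PRO3, which encodes pyrroline-5-carboxylate reductase, had 175 bp in Ioc3-R739E/R742E, against 266 bp in Ioc3-KO, 270 bp in Ioc3-Q251K/D252K and 263, 262 and 264 bp in wild type. In each case a single pool stood apart and the other 5 lay within 10 bp of each other.

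These too were added entries. HIS7 gained a nucleosome of 27 reads at -193 bp in Ioc3-KO. LYS1 gained one of 17 reads at -130 bp, and PRO3 one of 43 reads at -156 bp, both in Ioc3-R739E/R742E. The gap differences were -123 bp for HIS7 (adjusted p = 0.0161), -93.3 bp for LYS1 and -88.0 bp for PRO3 (adjusted p = 0.0159 for each). Each of these single-genotype calls, those of ARO1 included, was lost when any 1 wild-type pool was left out, while the call of ARO1 over the 3 Ioc3 pools was kept in all 6 such fits.

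The gap calls were 1 to 3 of the 51 in each comparison. In Ioc3-KO 2 members were called, both narrower, where 5.19% of all genes were called and 3.14% were narrower. In Ioc3-R739E/R742E 3 members were called, all narrower (4.94% of all genes called, 2.92% narrower). In Ioc3-Q251K/D252K ARO1 alone was called (5.34% called, 2.99% narrower), as over the 3 Ioc3 pools (0.701% called, 0.517% narrower). Limma's unadjusted p was under 0.05 at 4, 4, 3 and 3 members in these comparisons. The median gap was 194 bp in Ioc3-KO, 191 bp in Ioc3-R739E/R742E, 196 bp in Ioc3-Q251K/D252K and 204, 210 and 216 bp in wild type. Set against its own wild-type mean, however, a member's gap differed by a median of -0.33 bp in Ioc3-KO, -3.33 bp in Ioc3-R739E/R742E and 1.0 bp in Ioc3-Q251K/D252K.

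The wild-type pools themselves often disagreed on a gap. At 23 of the 51 genes the 3 wild-type values lay over 50 bp apart (45.1%, against 37.24% of all genes), and at 15 they lay within 10 bp. HIS4, a multi-step histidine enzyme, had 168 bp in Ioc3-KO, 197 bp in Ioc3-R739E/R742E and 174 bp in Ioc3-Q251K/D252K, against 272, 305 and 197 bp in wild type. The pools of HIS4 meet at 197 bp, and its difference of -78.3 bp had an adjusted p of 0.855. ARO8, an aromatic aminotransferase gene, had 162, 207 and 219 bp in the Ioc3 pools in the same order, against 313, 311 and 216 bp in wild type, so its groups overlap as well (adjusted p = 0.855).

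THR4, which encodes threonine synthase, kept a weak promoter nucleosome in every pool. Its gap was 152 bp in Ioc3-KO, 165 bp in Ioc3-R739E/R742E and 155 bp in Ioc3-Q251K/D252K, against 181, 181 and 186 bp in wild type. The groups do not overlap, but the difference of -25.3 bp was not called (SE 4.98, adjusted p = 0.402). The weak entry held 15 to 23 reads and sat at -180, -188 and -173 bp in the Ioc3 pools, against -144, -206 and -140 bp in wild type. All 3 Ioc3 pools lay below all wild-type pools at 3 members (ARO1, HIS1 and THR4; 3.94% of all genes) and above them at 2 (ARG2 and HIS6; 7.66%).

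**Figure D2:**
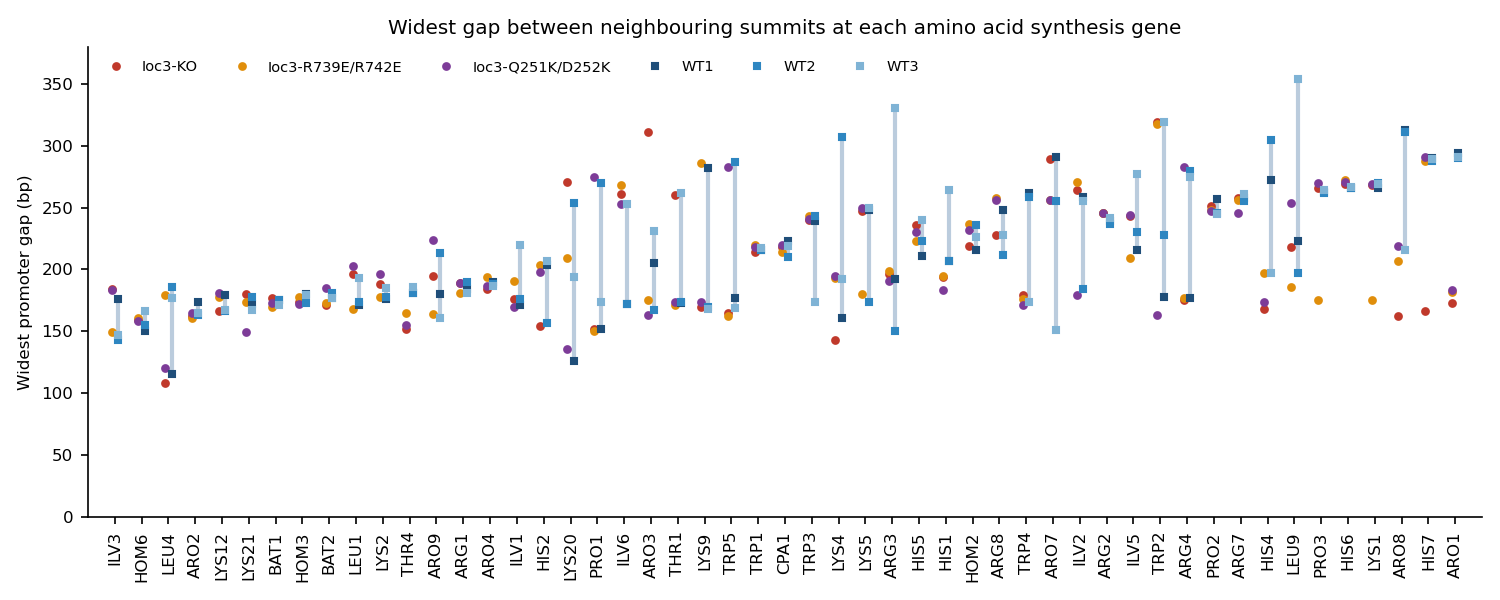
Widest promoter gap in bp at each of the 51 genes, ordered by the wild-type mean, with circles for the 3 Ioc3 pools and squares joined by a bar for the 3 wild-type pools. ARO1, at the right, has 3 circles at 173 to 183 bp under squares at 290 to 294 bp. Many genes have long wild-type bars that cover the Ioc3 values.

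Promoter nucleosomes that were present in all pools were compared by peak height, on a log2 scale after division by the median peak height of the pool. PRO2 encodes the gamma-glutamyl phosphate reductase of proline synthesis (YOR323C, chromosome XV, 921535 to 922905, minus strand). The summit near -216 bp of PRO2 held 110 reads in Ioc3-KO, 90 in Ioc3-R739E/R742E, 78 in Ioc3-Q251K/D252K, and 61, 66 and 62 in wild type. Every Ioc3 pool was above every wild-type pool, with the knockout highest. In Ioc3-KO the height was 1.00 higher on the log2 scale (SE 0.143, adjusted p = 0.0369).

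At BAT2, which encodes the cytosolic branched-chain aminotransferase, the nucleosome near -78 bp held 148, 139 and 152 reads in the Ioc3 pools in that order, against 109, 96 and 108 reads in wild type. Over the 3 Ioc3 pools its height was 0.61 higher on the log2 scale (SE 0.112, adjusted p = 0.0414), and the groups do not overlap. At ARO4, which encodes a DAHP synthase of the shikimate pathway, the weak nucleosome near -303 bp held 41, 38 and 31 reads in the Ioc3 pools in that order, against 25, 25 and 26 reads in wild type. Its height was 0.77 higher (SE 0.135, adjusted p = 0.0359). With log2 reads in place of peak height, the members called over the 3 Ioc3 pools were ARG8, BAT2 and LYS4, without ARO4. At ILV5, which encodes acetohydroxyacid reductoisomerase, the weak nucleosome near -290 bp held 53 reads in Ioc3-Q251K/D252K, against 37 reads in Ioc3-KO, 29 reads in Ioc3-R739E/R742E and 36, 34 and 32 reads in wild type. Its height was 0.90 higher in Ioc3-Q251K/D252K than in wild type (SE 0.165, adjusted p = 0.0390).

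These promoter heights depended on the scaling. The median peak height of a whole list was 0.12 lower in Ioc3-KO than in wild type on the log2 scale, 0.053 lower in Ioc3-R739E/R742E and 0.059 lower in Ioc3-Q251K/D252K. Without division by that median the same 4 nucleosomes stayed higher, by 0.88 at PRO2, 0.53 at BAT2, 0.69 at ARO4 and 0.84 at ILV5, but none was called. In all, 1 of 605 positions was called in Ioc3-KO (0.228% of all positions called, 0.185% higher), 6 in Ioc3-Q251K/D252K (0.842% called, 0.766% higher) and 3 over the 3 Ioc3 pools (0.483% called, 0.454% higher). In Ioc3-R739E/R742E 0 were called by limma, with 36 at unadjusted p under 0.05 (0.0163% of all positions called). All of the called positions were higher than in wild type. That of BAT2 was not called with WT2, WT3, Ioc3-KO or Ioc3-Q251K/D252K left out, when its height was 0.53, 0.60, 0.63 and 0.55 higher. That of ARO4 was not called with WT2, WT3 or Ioc3-KO left out, when its height was 0.86, 0.80 and 0.67 higher.

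Promoter summits had positive median height differences in the members and in all genes. From 400 to 200 bp before the start codon, the median height difference of 52 positions was 0.34 in Ioc3-KO, 0.19 in Ioc3-R739E/R742E and 0.27 in Ioc3-Q251K/D252K on the log2 scale, where all genes had 0.24, 0.11 and 0.17. WT1 against the other wild-type pools gave 0.19 at these positions, as much as the first point mutant. Summed reads over the 600 bp before the start codon were called at 0 members in every comparison by edgeR, with unadjusted p under 0.05 at 6 members in Ioc3-KO, 3 in the R739E/R742E and 4 in the Q251K/D252K substitution, and 8 over the 3 Ioc3 pools. The same comparisons called 0%, 0%, 0.467% and 0.4% of all genes, and DESeq2 also called 0 members in each. All 3 Ioc3 pools lay above all wild-type pools at 6 members (ARG3, ARO8, BAT2, HIS4, LEU1 and TRP4; 10.5% of all genes) and below them at 3 (ARO9, CPA1 and THR1; 8.47%). The HIS4 promoter held 408, 412 and 403 reads in the Ioc3 pools in that order, against 328, 283 and 331 reads in wild type (log2 difference 0.29, adjusted p = 0.388).

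LYS4, which encodes homoaconitase, carried 5 of the 6 positions called in Ioc3-Q251K/D252K. It held 3243 coding reads in Ioc3-Q251K/D252K, against 1873 in Ioc3-KO, 1924 in Ioc3-R739E/R742E and 1920, 1996 and 1975 in wild type. The difference from wild type was 0.76 on the log2 scale (edgeR adjusted p = 0.00412), and LYS4 was the only member called for coding reads in Ioc3-Q251K/D252K, where 1.04% of all genes were called and 0.89% were higher. LYS4 lies in a stretch of 48 genes on chromosome IV from GCD6 to EXG2 (884727 to 979209). The stretch was picked as that chromosome's longest run of genes with a log2 difference in coding reads above 0.45 in that pool. Its median of 0.816, against -0.0402 in other genes, is therefore set by this rule and is no separate support. With the stretch left out, LYS4 was not tested, and 0 members were called for coding reads or peak height in that genotype (ILV5, on another chromosome, also lost its call there). The LYS4 nucleosome near -147 bp was also called over the 3 Ioc3 pools (0.78 higher, adjusted p = 0.0497), but not with Ioc3-Q251K/D252K (0.58), Ioc3-KO (0.84), WT1 (0.82), WT2 (0.79) or WT3 (0.74) left out. Coding reads of the members were called at 0 genes by edgeR in the other comparisons, with 3 at unadjusted p under 0.05 in Ioc3-KO, 3 in Ioc3-R739E/R742E and 4 over the 3 Ioc3 pools (0.101%, 0% and 0.101% of all genes called).

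Over the first part of the coding region, nucleosomes of the amino acid synthesis genes had a downstream median shift in Ioc3-KO. From 200 to 400 bp after the start codon the median shift of 57 positions was 4.0 bp in Ioc3-KO, 2.0 bp in Ioc3-R739E/R742E and 1.0 bp in Ioc3-Q251K/D252K, against 0.5, 0 and 0 bp for each wild-type pool set against the other wild-type pools. All genes had 2.67, 1.0 and 1.0 bp in the 3 Ioc3 pools. In Ioc3-KO the members' shift was 1.33 bp from 400 to 600 bp and 0 bp from 600 to 800 bp, and it was -1.67 bp, upstream, from 800 to 1000 bp. In that last bin WT2 alone gave 2.0 bp against its own wild-type counterparts, so shifts of this size also arise between wild-type pools.

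**Figure D3:**
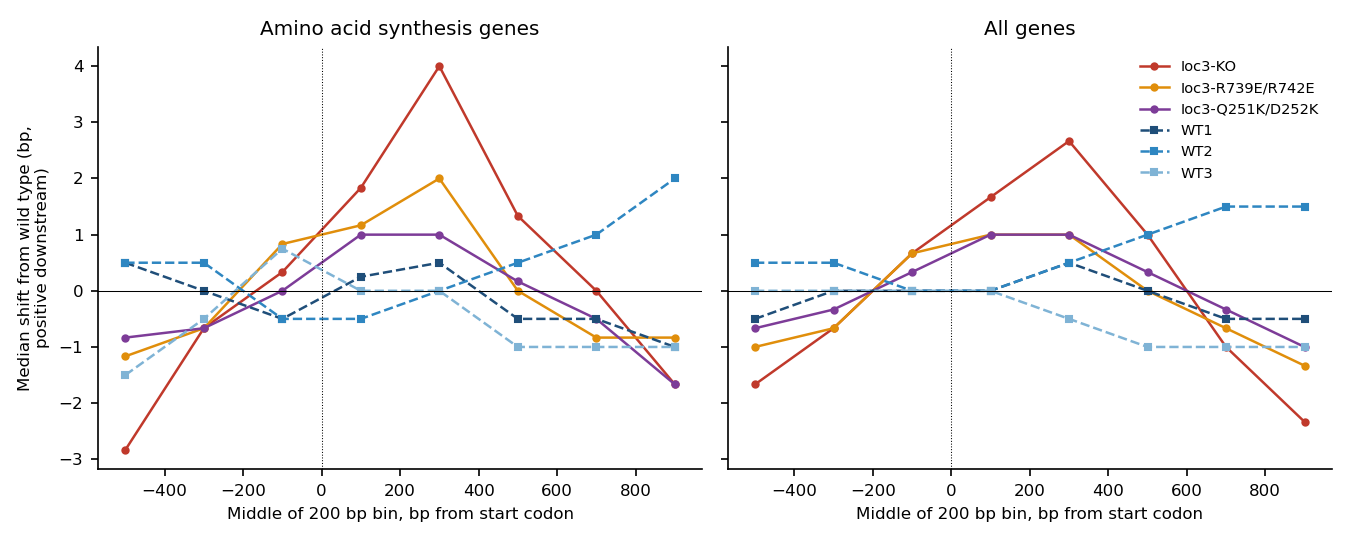
Median shift of nucleosome summits in bp by 200 bp bins of distance from the start codon, for the 51 genes (left) and all genes (right), with solid lines for the Ioc3 pools against the wild-type mean and dashed lines for each wild-type pool against the other wild-type pools. Ioc3-KO reaches 4.0 bp downstream in the members from 200 to 400 bp and 2.67 bp in all genes, and lies upstream beyond 800 bp in both.

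Averaged over the nucleosomes of the first 500 bp, a gene's mean summit lay downstream of wild type in Ioc3-KO at 34 of the 48 members with enough nucleosomes and upstream at 13. The median shift was 2.83 bp, against 2.11 bp for all genes. The limma test called 8 of the 48, all downstream (ARO4, ARO9, CPA1, HIS2, HIS6, ILV3, LEU1 and LEU9), where 13.3% of all genes were called and 11.4% were downstream. This 500 bp measure was an alternative to the main one over 1000 bp, and it was not refitted with a pool left out. CPA1, which encodes the small subunit of arginine-specific carbamoyl phosphate synthetase, had a mean summit at 206 bp in Ioc3-KO, 197 bp in each point mutant, and 188, 189 and 185 bp in wild type. Its difference in Ioc3-KO was 18.9 bp (SE 1.86, adjusted p = 0.0201), with both point mutants between the knockout and wild type. Over the first 1000 bp its difference was 0.94 bp (adjusted p = 0.912).

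LEU9, which encodes an alpha-isopropylmalate synthase of leucine synthesis, also had both point mutants between the knockout and wild type. Its mean summit over 500 bp was at 290 bp in Ioc3-KO, 285 bp in Ioc3-R739E/R742E and 282 bp in Ioc3-Q251K/D252K, against 271, 269 and 275 bp in wild type. The difference in Ioc3-KO was 17.8 bp (SE 2.76, adjusted p = 0.0397). The summit that moved most was at 303, 295 and 280 bp in the Ioc3 pools in that order, against 262, 266 and 274 bp in wild type, while the next one stood at 436, 437 and 436 bp against 432, 433 and 431 bp. The first summit of LEU9 was at 130, 122 and 129 bp in the Ioc3 pools in that order, against 119, 109 and 121 bp in wild type. In Ioc3-KO the difference from the wild-type mean was thus 13.7, 35.7 and 4.0 bp at the 3 summits, and at the summits near 744 and 896 bp its pools lay within 5 bp of each other.

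Taken over the first 1000 bp, the main measure, 2 members were called in Ioc3-KO, where 7.92% of all genes were called (5.73% downstream, 2.19% upstream). HIS6, which encodes the ProFAR isomerase of histidine synthesis (YIL020C, chromosome IX, 314035 to 314820, minus strand), had a mean summit at 414.5 bp in Ioc3-KO, 407.25 bp in Ioc3-R739E/R742E and 408 bp in Ioc3-Q251K/D252K, against 405.5, 402.75 and 403 bp in wild type. All 3 Ioc3 pools lay downstream of all wild-type pools. The difference in Ioc3-KO was 10.8 bp (SE 1.72, adjusted p = 0.0466). Its summits in Ioc3-KO stood at 163, 331, 491 and 673 bp, against 151, 321, 486 and 664 bp in WT1, while the nucleosome before the start codon was at -26 bp and -27 bp.

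HOM3, which encodes aspartate kinase at the head of the threonine branch, was called in the other direction. Its mean summit was at 489 bp in Ioc3-KO, against 499.667 and 501.5 bp in the point mutants and 500.167, 501.5 and 499.833 bp in wild type. The difference was -11.8 bp (SE 1.39, adjusted p = 0.0342), and Ioc3-KO stood apart from all other pools. It rested on entries deep in the gene: Ioc3-KO listed summits at 699 and 839 bp, where wild type had 765, 757 and 750 bp and 853, 866 and 865 bp, and over the first 500 bp the difference was 2.67 bp, downstream. Neither HIS6 nor HOM3 was called with WT1, WT2 or WT3 left out, with differences of 11.6, 10.2 and 10.4 bp at HIS6 and -12.0, -11.3 and -12.2 bp at HOM3.

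**Figure D4:**
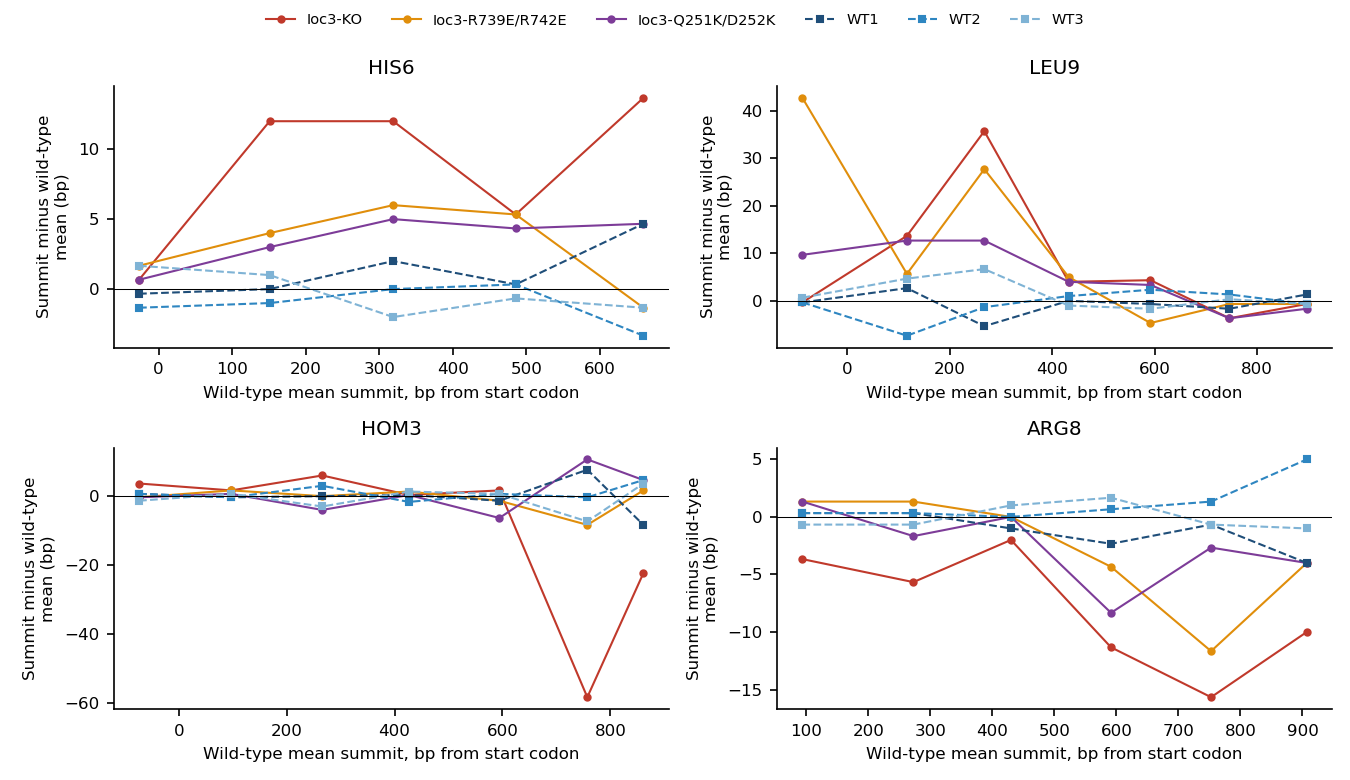
Position of each matched summit minus its wild-type mean in bp, by wild-type position from the start codon, in HIS6, LEU9, HOM3 and ARG8, with solid lines for the Ioc3 pools and dashed lines for wild type; the vertical scales differ. Ioc3-KO lies above 0 through HIS6 and at the LEU9 summit that moved most, and below 0 at the HOM3 summits near 758 and 860 bp and at the ARG8 summits from 587 to 904 bp.

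Shifts that missed the threshold were as large as the called ones. ARG4, which encodes argininosuccinate lyase, had the largest difference of any member in Ioc3-KO (15.5 bp, SE 3.59, adjusted p = 0.0807). Its mean summit was at 563 bp in Ioc3-KO and 550 and 556 bp in the point mutants, against 549.667, 542 and 549.5 bp in wild type. That mean covers 6 positions, and most of the difference came from the one near 972 bp, which moved 71.3 bp in Ioc3-KO. Over the first 500 bp the ARG4 difference was 6.56 bp (adjusted p = 0.0663). Next after ARG4 over 1000 bp came ILV5 with 11.2 bp (adjusted p = 0.316), and its wild-type pools were themselves 541 to 555 bp. ARG8, which encodes acetylornithine aminotransferase, had -8.06 bp (adjusted p = 0.0616) and HOM6, which encodes homoserine dehydrogenase, had -7.22 bp (adjusted p = 0.0699). At both genes all 3 Ioc3 pools lay upstream of all wild-type pools.

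The point mutants gave no call for body shift among the members, with 6 at unadjusted p under 0.05 in Ioc3-R739E/R742E and 3 in Ioc3-Q251K/D252K by limma, and 0% of all genes were called in either. HIS5, which encodes histidinol-phosphate aminotransferase, had a mean summit at 527.5 bp in Ioc3-R739E/R742E, against 537 bp in both other Ioc3 pools and 538, 537 and 539 bp in wild type. That pool listed its first genic nucleosome at 10 bp, where the others had it at 68 to 73 bp. The difference of -10.7 bp was not called (adjusted p = 0.284). The test of each point mutant against Ioc3-KO also called 0 members by limma, with 8 and 9 at unadjusted p under 0.05, and 0% of all genes.

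Over the 3 Ioc3 pools no body shift of a member was called by limma (8 at unadjusted p under 0.05, 0.0374% of all genes called). The highest values were 9.17 bp at ARG4, 6.33 bp at ILV5 and 6.28 bp at LEU9, and the lowest were -5.06 bp at LEU4, -4.56 bp at HOM6 and -4.50 bp at ARG8. All 3 Ioc3 pools lay downstream of all wild-type pools at 7 members (ARG2, ARG4, ARO9, HIS6, LEU9, LYS4 and LYS5; 15.8% of all genes) and upstream at 4 (ARG8, HOM6, THR1 and TRP1; 9.53%). The difference over the 3 Ioc3 pools was positive at 26 of the 51 members. By pathway it was positive at 8 of 8 lysine, 4 of 7 arginine, 3 of 6 histidine, 5 of 10 branched-chain, 5 of 12 aromatic, 1 of 5 threonine and 0 of 3 proline genes. The lysine differences were small, from 0.39 to 4.72 bp, and differences between pathways were not tested.

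Single nucleosomes that moved were few. In Ioc3-KO 4 of 605 positions in 3 members were called, against 1.28% of all positions. At HIS7 a summit stood at 843 bp in Ioc3-KO, against 910 bp in each point mutant and 903, 912 and 909 bp in wild type (difference -65.0 bp, SE 4.49, adjusted p = 0.0482). At LEU1, which encodes isopropylmalate isomerase, it stood at 1182 bp in Ioc3-KO, against 1222 and 1218 bp in the point mutants and 1230 bp in each wild-type pool (-48.0 bp, SE 1.46, adjusted p = 0.0335). At ARG4 a summit stood at 1042 bp in Ioc3-KO, against 971 and 977 bp in the point mutants and 972, 970 and 970 bp in wild type (71.3 bp, SE 1.81, adjusted p = 0.0335).

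The second ARG4 position was at 1369 bp in Ioc3-KO, against 1304, 1302 and 1309 bp in wild type (64.0 bp, adjusted p = 0.0387). These steps are large beside the shift of whole genes, and other lists hold entries near the new places. WT3 listed a second ARG4 nucleosome at 1048 bp and a second HIS7 nucleosome at 831 bp, and Ioc3-R739E/R742E listed one at 1373 bp of ARG4. With any 1 wild-type pool left out, 0 of these positions were called by limma. With a matching limit of 50 bp in place of 70 bp, 0 were called as well. That limit removed the HIS7 and ARG4 positions before testing, because their Ioc3-KO summits lay farther than that from the consensus position. Their loss under it was fixed by the rule, and only the LEU1 position was tested there. Of Ioc3-R739E/R742E, Ioc3-Q251K/D252K and the 3 Ioc3 pools together, none gave a called position by limma, with 44, 42 and 65 at unadjusted p under 0.05 and 0%, 0% and 0.185% of all positions called.

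The fuzziness of coding-region nucleosomes was above the wild-type mean in Ioc3-KO at 46 of the 51 genes (90.2%), near the 88.5% of all genes. The mean fuzziness over the first 1000 bp had a median difference from wild type of 1.32 bp in Ioc3-KO, 0.592 bp in Ioc3-R739E/R742E and 0.0938 bp in Ioc3-Q251K/D252K, against 0.203, -0.111 and -0.0985 bp for each wild-type pool set against the other wild-type pools. All genes had medians of 1.83, 0.873 and 0.509 bp in the 3 Ioc3 pools. Fuzziness was called higher in Ioc3-KO at 14 members and lower at none, where 38.1% of all genes were called, 37.3% higher and 0.822% lower. The wild-type mean of the members ranged from 22.6 bp at PRO3 to 37.2 bp at LEU4, with a median of 30.1 bp, against 27.6 bp for all genes.

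ARG8 had the largest rise, with 30.4 bp in Ioc3-KO, 27.8 bp in Ioc3-R739E/R742E and 26.9 bp in Ioc3-Q251K/D252K, against 26.9, 25.8 and 26.4 bp in wild type. Its difference in Ioc3-KO was 4.09 bp (SE 0.894, adjusted p = 0.00200). Within the ARG8 coding region the largest difference was at the nucleosome near 587 bp, with 34.0 bp in Ioc3-KO and 24.5 and 28.7 bp in the point mutants, against 27.7, 25.4 and 24.6 bp in wild type, and it was not called on its own. ARO9, which encodes an aromatic aminotransferase, had 32.0, 30.0 and 31.2 bp in the Ioc3 pools in that order, against 28.5, 27.8 and 27.7 bp in wild type. All 3 Ioc3 pools of ARO9 stood at least 1 bp above all wild-type pools. It was called in Ioc3-KO (3.97 bp, SE 0.886, adjusted p = 0.00226) and over the 3 Ioc3 pools (3.05 bp, SE 0.778, adjusted p = 0.0177).

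LYS20, which encodes homocitrate synthase, the entry enzyme of lysine synthesis, had 36.8, 34.6 and 34.4 bp in the Ioc3 pools in that order, against 32.4, 33.2 and 33.0 bp in wild type. Its groups do not overlap, and the difference was 3.93 bp in Ioc3-KO (SE 0.889, adjusted p = 0.00249) and 2.40 bp over the 3 Ioc3 pools (SE 0.792, adjusted p = 0.0478). PRO2 had 32.8, 29.6 and 29.1 bp, against 29.0, 29.0 and 29.1 bp in wild type, and was called in Ioc3-KO (3.75 bp, SE 0.876, adjusted p = 0.00307). In PRO2 the knockout alone stood well apart, and the point mutants lay within 1 bp of wild type. Over the 3 Ioc3 pools ARO9 and LYS20 were the members called, where 8.78% of all genes were called and 8.63% were higher. Leaving out Ioc3-KO, WT2 or WT3 ended both calls (2.59, 2.96 and 2.91 bp at ARO9, and 1.64, 2.59 and 2.46 bp at LYS20), and leaving out WT1 ended that of LYS20 (2.15 bp). The next highest value over the 3 Ioc3 pools was 2.04 bp at ARG8, and the lowest were -0.86 bp at ARO3, -0.86 bp at BAT2 and -0.71 bp at TRP3. All 3 Ioc3 pools lay above all wild-type pools at 8 members (ARG8, ARO4, ARO9, LEU1, LYS1, LYS20, PRO2 and TRP2; 32.3% of all genes) and below them at BAT2 (1.68%).

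The other 10 called members rose by 2.32 to 3.53 bp in Ioc3-KO. They were HIS6 and HIS7 of histidine synthesis, LYS12 (homoisocitrate dehydrogenase) and LYS1 of lysine synthesis, LEU1 and LEU9 of leucine synthesis, ARO2 (chorismate synthase) and TRP2 (anthranilate synthase) of the aromatic pathway, ARG7 (ornithine acetyltransferase) and PRO3. By pathway the calls were 2 of 7 arginine, 2 of 6 histidine, 2 of 10 branched-chain, 3 of 8 lysine, 3 of 12 aromatic, 2 of 3 proline and 0 of 5 threonine genes. Of all members 27.5% were called, against 38.1% of all genes (37.3% higher), and differences between pathways were not tested. Of the 14, 8 were called with any 1 wild-type pool left out (ARG8, ARO9, HIS6, LEU9, LYS12, LYS20, PRO2 and TRP2), and the other 6 missed the threshold in at least 1 such fit. Among members that were not called, 3 had negative differences of over 0.5 bp in Ioc3-KO: LEU4 with -1.54 bp, ARO3 with -1.03 bp and BAT2 with -0.60 bp. The wild-type values of LEU4 and ARO3 (37.2 and 36.9 bp) were among the highest of the members.

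**Figure D5:**
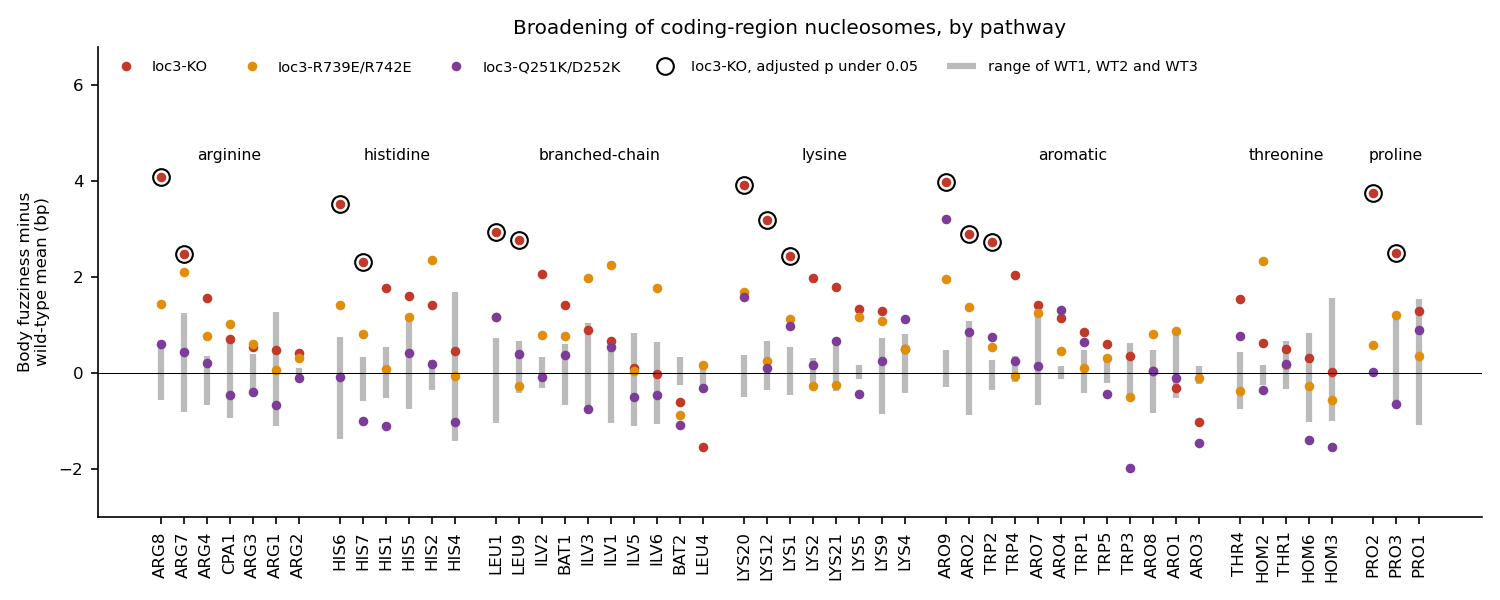
Mean fuzziness of coding-region nucleosomes minus the wild-type mean in bp for the 51 genes, grouped by pathway, with a circle for each Ioc3 pool, a grey bar for the range of the 3 wild-type pools and a black ring where Ioc3-KO was called. The ringed points lie from 2.32 bp (HIS7) to 4.09 bp (ARG8), and most point-mutant circles lie nearer to 0.

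The calls depended on the scale of the whole genome. With each pool centred on the median of all genes, none of the 14 was called and 2 members, ARO3 and LEU4, were called lower (5.68% of all genes called). The direct test of Ioc3-R739E/R742E against Ioc3-KO called 0 members by limma (5 at unadjusted p under 0.05, 0.168% of all genes), and that of Ioc3-Q251K/D252K against Ioc3-KO also 0 (10 at unadjusted p under 0.05, 1.46% of all genes). Fuzziness was lower in Ioc3-Q251K/D252K than in Ioc3-KO at 47 of 51 members, with a median difference of -1.23 bp, against -1.34 bp over all genes. It was lower in Ioc3-R739E/R742E than in Ioc3-KO at 39, with a median of -0.584 bp, against -0.951 bp over all genes.

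Against wild type, fuzziness was called at 0 members in either point mutant by limma, with 6 in Ioc3-R739E/R742E and 2 in Ioc3-Q251K/D252K at unadjusted p under 0.05, where 0.187% and 0.0187% of all genes were called. The highest differences were 2.35 bp at HIS2 in Ioc3-R739E/R742E and 3.21 bp at ARO9 in Ioc3-Q251K/D252K. For single nucleosomes 0 of 605 were called by limma in any comparison, with 65 at unadjusted p under 0.05 in Ioc3-KO, 34 in Ioc3-R739E/R742E, 26 in Ioc3-Q251K/D252K and 37 over the 3 Ioc3 pools. Of all positions 0.00148%, 0%, 0.0103% and 0% were called in these comparisons.

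Several steps are encoded by gene pairs. In Ioc3-KO the homocitrate synthase genes had fuzziness differences of 3.93 bp at LYS20 and 1.79 bp at LYS21 (adjusted p = 0.109). The alpha-isopropylmalate synthase genes had 2.77 bp at LEU9 (SE 0.897, adjusted p = 0.0199) and -1.54 bp at LEU4 (SE 0.881, adjusted p = 0.159), and their body shifts were 8.89 bp and -6.22 bp. The DAHP synthase genes had fuzziness differences of 1.15 bp at ARO4 and -1.03 bp at ARO3, and the branched-chain aminotransferase genes 1.42 bp at BAT1 and -0.60 bp at BAT2. The aromatic aminotransferase genes had 3.97 bp at ARO9 and 0.047 bp at ARO8 (adjusted p = 0.970). The differences between copies were not tested, and the sources used here do not say how reads that match both copies of a pair were placed.

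Among 33 further genes of amino acid synthesis and its regulation, body fuzziness in Ioc3-KO was called higher at 7 and lower at 2 (38.1% of all genes called, 37.3% higher and 0.822% lower). The higher ones included BAS1, a regulator of histidine and purine genes (27.6 bp in Ioc3-KO, against 24.5, 24.8 and 26.0 bp in wild type), ARO80, the activator of aromatic catabolism genes (32.6 bp, against 28.6, 28.4 and 29.5 bp), and GCN2, the kinase that senses uncharged tRNA (31.5 bp, against 29.2, 28.3 and 29.3 bp). GCN4 was 1 of the 2 called lower, with 33.8 bp in Ioc3-KO, against 34.5, 37.4 and 38.4 bp in wild type (-2.92 bp, adjusted p = 0.0385). At GCN4 Ioc3-KO lay nearer to WT1 than WT1 did to WT2 or WT3, and no result with a pool left out is given for it.

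CYS3, a cysteine synthesis gene of that further list, also had a narrower promoter gap in every Ioc3 pool. Its gap was 202 bp in Ioc3-KO, 202 bp in Ioc3-R739E/R742E and 194 bp in Ioc3-Q251K/D252K, against 306, 303 and 303 bp in wild type. The difference over the 3 Ioc3 pools was -105 bp (adjusted p = 0.000596). Unlike at ARO1, the listed entries inside the CYS3 gap were not examined, and no result with a pool left out is given for it. CYS3 was the only one of the 33 called in that comparison, where 0.701% of all genes were called (0.517% narrower). The serine hydroxymethyltransferase gene SHM2 was the only one of the 33 called for body shift in Ioc3-KO, with 9.83 bp downstream (adjusted p = 0.0384). Of all genes 7.92% were called there, 5.73% downstream.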

How the data were processed

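MNase-seq libraries of 12 samples in 6 groups were digested at 600, 1200 and 2400 gel units of nuclease per ml, per the labels' protocols; which digest a library came from is not stated. The submitters' processing notes name Trimmomatic, Bowtie2, SAMtools and the sacCer3 build. The sources used here do not name the caller that made the lists. Per the file headers, each list gives per nucleosome a summit position, a peak height (a signal whose scaling is not given), the standard deviation and mean of read positions, and the read count deposited by the authors. The start column was taken as the summit, and a count base of 0 in place of 1 would move all distances by 1 bp.

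Summits of the 6 lists were smoothed (SD 20 bp) into consensus positions at least 100 bp apart and matched within 70 bp. This gave 72752 positions, 67665 of them matched in all pools. Gene coordinates and names come from RefSeq's table of the same build. Position, fuzziness, log2 peak height, body means (at least 3 nucleosomes) and gaps were fitted with limma 3.58.1, and summed read counts (at least 50 on average) with edgeR 4.0.16 (quasi-likelihood, TMM), in R 4.3.3. DESeq2 1.42.0 was an alternative. Single genotypes used 1 fit over the 6 pools, and the 3 Ioc3 pools were also set against the 3 wild-type pools. P-values were adjusted by Benjamini-Hochberg over all positions or genes, and a call is an adjusted p under 0.05. The limma fit was run on simulated single-nucleosome fuzziness and the edgeR fit on simulated coding reads, each with differences added in all Ioc3 pools. The added fuzziness difference was larger than any given here, and positions, peak heights, gaps and body means were not simulated.

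P-values measure the spread between pools, and single-genotype tests rest on 1 pool. Read numbers carry counting error and further spread between pools, and duplicate molecules cannot be told apart. The LEU4 promoter, for example, held 473, 270 and 304 reads in WT1, WT2 and WT3. The members, the pathway lists and the tests were chosen with earlier results of these data known. Genes given with values are those called in any comparison, the extremes of body shift and fuzziness, the gene pairs, and LEU9, HIS5 and ARG8. THR4, HIS4, ARO8, CPA1, HIS2, the members named in counts and the further genes were named after their values were seen. Promoter and protein sequences were not used here, so no gene was chosen by a promoter motif. The result of 1 further gene is not reported here.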

Additional observations from a re-analysis of the deposited data

How the results depend on the processing

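No paired analysis was possible because each deposited list pools both replicates of its group, so no value carries a replicate number. Leaving out 1 pool at a time gave these ranges of members' calls: position 0 to 0 in Ioc3-KO (4 with all pools) and 0 to 1 over the 3 Ioc3 pools (0); single-nucleosome fuzziness 0 to 3 in Ioc3-KO, 0 to 2 in Ioc3-R739E/R742E and 0 to 1 in Ioc3-Q251K/D252K (0 in each); peak height 4 to 14 in Ioc3-KO (1), 1 to 2 in Ioc3-R739E/R742E (0), 14 to 20 in Ioc3-Q251K/D252K (6) and 0 to 11 over the 3 Ioc3 pools (3). Body shift in Ioc3-KO gave 0 to 0 (2), body fuzziness 9 to 11 in Ioc3-KO (14) and 0 to 4 over the 3 Ioc3 pools (2). Promoter gaps gave 0 to 0 in Ioc3-KO (2), in Ioc3-R739E/R742E (3) and in Ioc3-Q251K/D252K (1), and 1 to 3 over the 3 Ioc3 pools (1).

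Other settings moved these counts. Position calls in Ioc3-KO fell to 0 with a 50 bp matching limit, under which the HIS7 and ARG4 positions were not tested. They also fell to 0 without the fuzziest quartile of nucleosomes and with the mean read position. There were 6 with a robust variance prior and 5 without nucleosomes under 50 reads. Without nucleosomes under 50 reads, single-nucleosome fuzziness in Ioc3-KO gave 1 call, and peak height gave 5 in Ioc3-KO, 14 with the Q251K/D252K substitution and 6 over the 3 Ioc3 pools. Peak height gave 3 in Ioc3-KO and 14 in Ioc3-Q251K/D252K with a robust variance prior, and without division by the pool median it gave 0 in Ioc3-KO and over the 3 Ioc3 pools and 3 in Ioc3-Q251K/D252K. From log2 reads it gave 0 in Ioc3-KO and 17 in Ioc3-Q251K/D252K. Without the chromosome IV stretch, an alternative added after the data were seen, Ioc3-Q251K/D252K gave 0 for peak height and 0 for coding reads (1 with it). Body shift in Ioc3-KO gave 4 calls with centred values, 8 over 500 bp, 0 over the whole coding region and 6 from mean read positions, and Ioc3-R739E/R742E against Ioc3-KO gave 1 over 500 bp (HIS5). HOM3 reversed to 2.67 bp over 500 bp. Body fuzziness in Ioc3-KO gave 2 calls centred, 4 over 500 bp and 9 over the whole coding region; over the 3 Ioc3 pools it gave 0, 1 and 0. Where the cause of a change is not in the setting's own construction, the cause was not tested. Calls against wild type with 1 wild-type pool left out rest on 2 wild-type pools, which limits what they can show.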
